A study of Homo sapiens with 6 samples.

Results

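The classical cadherins of mesenchymal cells and the catenins that bind them were examined in UE7T-9, a line of mesenchymal stem cells from human bone marrow that carries hTERT and the E7 gene of human papillomavirus for immortality. Members were chosen by name, but with earlier results of these data known. They were the cadherins CDH1, CDH2, CDH4, CDH6, CDH11 and CDH13, and the catenins CTNNA1, CTNNB1, CTNND1 and JUP. All 10 were found among the 28181 genes of the files, and all 10 were among the 23040 genes tested. The study compared 3 libraries of UE7T-9 SHC4, infected with a lentivirus carrying SHC4 behind a CMV promoter and selected with puromycin, with 3 libraries of UE7T-9 Cont. The study's methods give UE7T-9 Cont as cells with the same vector carrying GFP and the same selection, whereas the labels call them nontarget and wild type. The labels number 3 biological replicates per group. Because the sources used here do not say whether these were separate infections, clones or cultures, the p-values measure the spread between these libraries only. Both groups came from 1 immortalized line, and the design text speaks of clones of the overexpressing cells, which limits them as a model of mesenchymal stem cells.

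Classical cadherins are calcium-dependent adhesion proteins that bind the same or similar cadherins on a neighbouring cell. Their cytoplasmic tails bind p120-catenin (CTNND1) close to the membrane and β-catenin (CTNNB1) or plakoglobin (JUP) further along, and these are linked to actin through α-catenin (CTNNA1). E-cadherin (CDH1) is the cadherin of epithelia, whereas mesenchymal cells typically carry N-cadherin (CDH2) and cadherin-11 (CDH11), the latter also known as OB-cadherin from osteoblasts. T-cadherin (CDH13) lacks a cytoplasmic tail and is held in the membrane by a lipid anchor.

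The labels were checked first. SHC4 had normalized values of 56.5, 157 and 130 in UE7T-9 Cont, against 134870, 119166 and 155006 in UE7T-9 SHC4, a rise of 10.32 on the log2 scale (standard error 0.32). A normalized count is the gene's read count divided by 1 scaling factor of the library, and the recovered library totals lay between 18144993 and 27721397 reads. Pearson's correlation of log2 values across genes lay between 0.962 and 0.980 for all pairs of libraries. UE7T-9 Cont replicate 1 correlated at 0.975, 0.969 and 0.968 with UE7T-9 SHC4 replicates 1, 2 and 3, all above 0.967 and 0.962 with the other controls. For this reason the members are given with and without UE7T-9 Cont replicate 1. The mesenchymal markers fixed for the check (VIM, THY1, ENG, NT5E, COL1A1, COL1A2, PDGFRB and LUM) were all well expressed, with mean normalized counts from 4064 to 166618. Of 10 epithelial markers, 7 were in the files used here, and their summed normalized count was 64.7 to 91.6 in UE7T-9 Cont, against 43.3 to 86.1 in UE7T-9 SHC4. EPCAM, the epithelial adhesion molecule, did not exceed 4.92 in any library. The endothelial markers summed to 93.5 to 277 and 95.8 to 256, the hematopoietic markers to 121 to 141 and 108.1 to 115, and DES, the 1 muscle marker of 4 in the files, was at most 5.85.

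To ask whether cadherin or catenin mRNA differed in cells overexpressing SHC4, each member was compared across the 2 groups. No member passed the test. Limma on log2(normalized count + 1), with Benjamini-Hochberg adjustment over all 23040 genes, called 0 of 10 members at an adjusted p below 0.05, where 0.0651% of all genes passed. CDH11 was the 1 member with an unadjusted p below 0.05, as were 14.4% of all genes. On the recovered reads, DESeq2 called 0 of the 9 members that received an adjusted p and edgeR called 0 of the 9 that passed its filter, against 4.14% and 0.0694% of all genes, and neither tool had a member at an unadjusted p below 0.05. The fold change was above 0 for 7 members and below 0 for 3. The median log2 fold change of the members was 0.06, where that of all tested genes was -0.0040, and their median absolute value was 0.15, where that of all genes was 0.29. A bulk sample cannot tell fewer cells with a transcript from less RNA per cell.

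**Figure D1:**
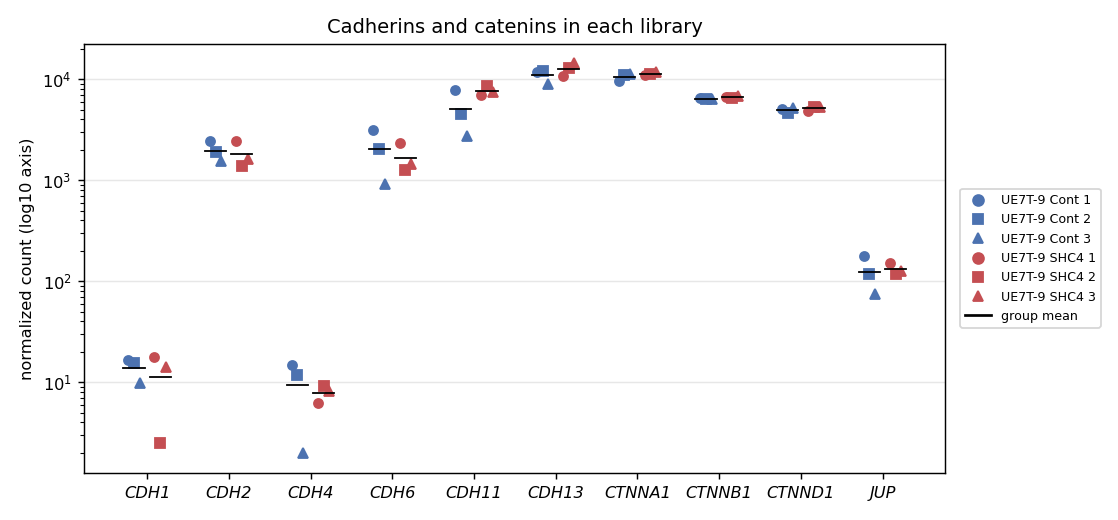
Normalized count (log10 axis) of the 6 cadherins and 4 catenins in each library, with UE7T-9 Cont in blue, UE7T-9 SHC4 in red, 1 symbol per replicate number and a black line at the group mean. CDH1 and CDH4 lie at or below 17.6 in every library, and CTNNB1 is the 1 member whose groups do not overlap.

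Levels were compared between genes as normalized counts per kilobase of annotated exon. By the median over the 6 libraries, CTNNA1 was highest (1256 per kilobase), followed by CDH13 (1063), CTNND1 (583), CTNNB1 (548), CDH11 (542), CDH2 (355), CDH6 (141), JUP (24.8), CDH1 (2.37) and CDH4 (1.18). CDH13 was thus the most abundant of the 6 member cadherins by this median. Over the 6 libraries, the ranges of CTNNA1 and CDH13 overlapped, as did those of CTNND1, CTNNB1, CDH11 and CDH2 between neighbours in this order, and those of CDH1 and CDH4. The steps from CDH13 to CTNND1, from CDH2 to CDH6, from CDH6 to JUP and from JUP to CDH1 had no overlap. When the longest transcript was taken as the length, CTNNB1 and CDH11 stood above CTNND1, and the other members kept their rank.

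Of the type I cadherins, N-cadherin (CDH2, chromosome 18 from 27950966 to 28177446, minus strand, on GRCh38) is the one most tied to mesenchymal cells. Its normalized counts were 2447, 1882 and 1547 in UE7T-9 Cont, against 2441, 1366 and 1630.3 in UE7T-9 SHC4. The ranges of the groups nearly coincided, and replicate 1 was the highest library of each. The means were 1959 ± 455 and 1812 ± 560 (SD, n = 3 each), for a log2 fold change of -0.13 (standard error 0.23, 95% interval -0.65 to 0.39, limma adjusted p = 0.839). On the linear scale this interval runs from a fold of 0.636 to 1.31. Without UE7T-9 Cont replicate 1 the log2 fold change was 0.04 (limma adjusted p = 0.941).

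E-cadherin (CDH1, chromosome 16 from 68737225 to 68835548, plus strand) was near the limit of detection. Its normalized counts were 16.6, 15.3 and 9.84 in UE7T-9 Cont, against 17.6, 2.50 and 14.0 in UE7T-9 SHC4, which rest on 3 to 20 reads per library. The value of UE7T-9 SHC4 replicate 2 equals 3 reads. The log2 fold change was -0.30 in DESeq2. In limma it was -0.56 with a 95% interval from -2.04 to 0.93 (limma adjusted p = 0.745), and without that library it was 0.19. The interval covers folds from 0.243 to 1.90, so differences of that size cannot be told from none with these libraries. R-cadherin (CDH4, chromosome 20 from 61252426 to 61940617, plus strand), a cadherin of retina and brain, had normalized values of 14.6, 11.8 and 1.97 in UE7T-9 Cont, against 6.15, 9.16 and 8.15 in UE7T-9 SHC4. All values of UE7T-9 SHC4 lay inside the range of the controls, whose lowest library held 2 reads. The limma log2 fold change was 0.06 (95% interval -1.47 to 1.58, adjusted p = 0.980), and that of DESeq2 was -0.27.

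Cadherin-11 (CDH11, chromosome 16 from 64943753 to 65126112, minus strand), a type II cadherin of mesenchyme and osteoblasts, had the largest log2 fold change of the 10 members. Its normalized counts were 7799, 4557 and 2745 in UE7T-9 Cont, against 7019, 8508 and 7481 in UE7T-9 SHC4. UE7T-9 Cont replicates 2 and 3 lay below every UE7T-9 SHC4 library, while UE7T-9 Cont replicate 1 lay among them. The means were 5034 ± 2561 and 7669 ± 762 (SD, n = 3 each), for a log2 fold change of 0.73 (standard error 0.31, 95% interval 0.02 to 1.44, limma adjusted p = 0.332). An exact two-sided permutation test over the 6 libraries gave p = 0.3, where 0.1 is the smallest that 3 libraries against 3 allow. DESeq2 gave a log2 fold change of 0.61 (adjusted p = 0.320) and edgeR an adjusted p of 0.389. Without UE7T-9 Cont replicate 1, limma gave CDH11 a log2 fold change of 1.11 (SE 0.21, adjusted p = 0.0177), and this was the 1 fit of the 6 leaving out a library in which any member passed. In that fit 5.68% of all genes passed, and 2.99% passed with higher values, in all 1311 genes in place of 15. UE7T-9 Cont replicate 1 was left out for its likeness to the UE7T-9 SHC4 libraries, and its CDH11 value lay among theirs. A larger difference without it was therefore fixed in advance and is no independent support. With UE7T-9 Cont replicate 3 left out in its place, the log2 fold change of CDH11 was 0.36 (limma adjusted p = 0.636).

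Mesenchymal markers were followed beside CDH11. Of the 8 markers, 7 had a log2 fold change above 0. Limma called 0 of them, with 2 at an unadjusted p below 0.05, where 14.4% of all genes were. EdgeR called 0 and DESeq2 called PDGFRB, where DESeq2 called 4.14% of all genes. The summed normalized count of the 8 markers was 622077 in UE7T-9 Cont replicate 1, 204587 in the lowest control and 377735 to 562624 in UE7T-9 SHC4. In every library most of this sum came from COL1A1 and COL1A2, at 315042 and 238109 in UE7T-9 Cont replicate 1. It therefore follows the collagen genes more than the other markers. Single markers differed in how the libraries were placed, as shown by 2 that were chosen after their values were seen. THY1 was 7742, 2940 and 2286 in UE7T-9 Cont, against 7845, 9570 and 7512 in UE7T-9 SHC4, with UE7T-9 Cont replicates 2 and 3 below every UE7T-9 SHC4 library as for CDH11. NT5E was 13089, 22364.5 and 20649 in UE7T-9 Cont, against 14682, 12068 and 16005 in UE7T-9 SHC4, with the same 2 controls above every UE7T-9 SHC4 library. UE7T-9 Cont replicates 2 and 3 both lay below every UE7T-9 SHC4 library for 18.7% of all tested genes. The part of these markers in the CDH11 values was not tested.

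K-cadherin (CDH6, chromosome 5 from 31193750 to 31329146, plus strand) is the other type II cadherin of the set and is known from kidney and neural crest. Its normalized counts were 3142, 2048 and 912 in UE7T-9 Cont, against 2321, 1248 and 1437 in UE7T-9 SHC4. The controls spread more widely than UE7T-9 SHC4 and enclosed all 3 of its libraries. The means were 2034 ± 1115 and 1669 ± 573 (SD, n = 3 each), for a log2 fold change of -0.17 (standard error 0.40, limma adjusted p = 0.887). Without UE7T-9 Cont replicate 1 the value was 0.23 (limma adjusted p = 0.739), and without UE7T-9 SHC4 replicate 2 it was 0.02, so the sign depended on single libraries.

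T-cadherin (CDH13, chromosome 16 from 82626803 to 83800640, plus strand), the lipid-anchored member, had normalized values of 11668, 12107 and 8917 in UE7T-9 Cont, against 10786, 12968 and 14279 in UE7T-9 SHC4. UE7T-9 Cont replicates 1 and 2 lay above the lowest UE7T-9 SHC4 library. The log2 fold change was 0.22 (standard error 0.18, 95% interval -0.19 to 0.63, limma adjusted p = 0.620). Among 11520 other genes averaging at least 100 normalized counts, the profiles most like that of CDH13 over the 6 libraries were those of TNFAIP8, UST and ZNF322. Their log2 values, centred on each gene's mean, differed from CDH13 by a root mean square of 0.041, 0.041 and 0.047. None of the 3 passed the test (limma adjusted p of 0.592, 0.565 and 0.648), and such a likeness over 6 libraries is a description only.

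**Figure D2:**
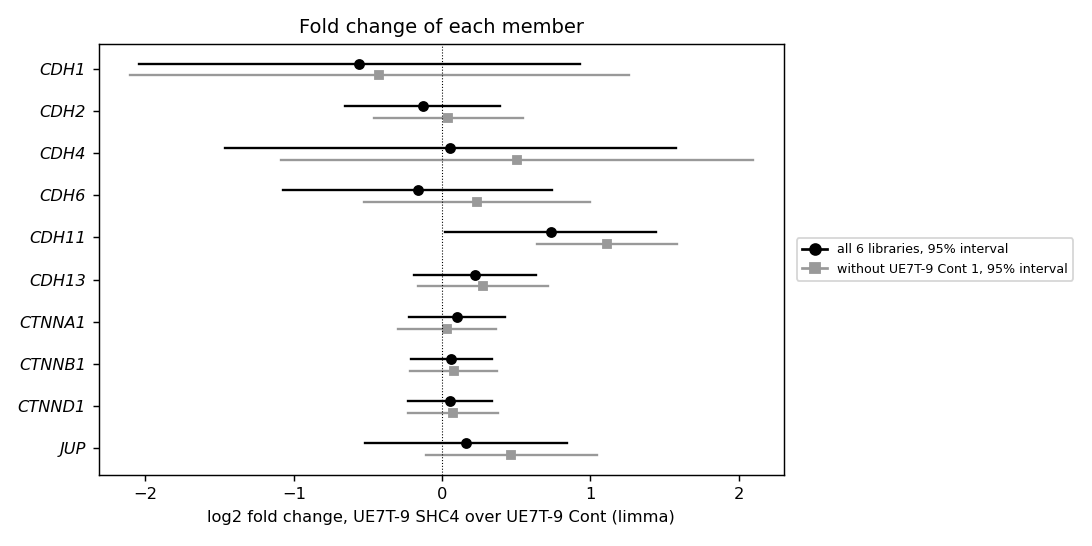
Log2 fold change of each member in UE7T-9 SHC4 over UE7T-9 Cont from limma, with 95% intervals, for all 6 libraries (black circles) and without UE7T-9 Cont replicate 1 (grey squares). The interval of CDH11 starts at 0.02 with all libraries and at 0.64 without that control, and the intervals of the other 9 members cover 0 in both fits. That control was left out for its likeness to the UE7T-9 SHC4 libraries, so the grey squares are no independent support.

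The 3 abundant catenins spread little between libraries. α-catenin (CTNNA1, chromosome 5 from 138610967 to 138935034, plus strand) had normalized values of 9614, 10903 and 11207.5 in UE7T-9 Cont, against 11023, 11160.5 and 11758 in UE7T-9 SHC4. UE7T-9 Cont replicate 3 lay above the lower 2 of these, and the log2 fold change was 0.10 (95% interval -0.22 to 0.42, limma adjusted p = 0.793). p120-catenin (CTNND1, chromosome 11 from 57753243 to 57819546, plus strand), which stabilizes cadherins at the membrane, had 5089, 4598 and 5171 in UE7T-9 Cont, against 4807, 5346 and 5284 in UE7T-9 SHC4. Its log2 fold change was 0.06 (95% interval -0.23 to 0.34, limma adjusted p = 0.877).

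β-catenin (CTNNB1, chromosome 3 from 41194741 to 41260096, plus strand), which joins cadherin tails to α-catenin and also carries the WNT signal to the nucleus, was the steadiest member. Its normalized counts were 6507, 6317 and 6327 in UE7T-9 Cont, against 6629, 6554 and 6826 in UE7T-9 SHC4. Each UE7T-9 SHC4 library exceeded each control, which made CTNNB1 the 1 member of 10 without overlap, where 19.3% of all tested genes had none and 9.13% had UE7T-9 SHC4 above. The means were 6384 ± 107 and 6670 ± 141 (SD, n = 3 each), a fold of 1.04 with a 95% interval from 0.863 to 1.27 (limma adjusted p = 0.854), and the exact permutation test gave p = 0.1, its smallest value. Limma draws each gene's spread toward that of genes of like level, and its standard error for CTNNB1 was 0.12. The interval and the limma p-value thus rest largely on the spread of other genes, which was wider than that of CTNNB1. The order of the groups rested on the scaling. It stood with TMM scaling. With library size scaling the groups overlapped and the log2 fold change was -0.04, where all genes had a median of -0.10. The pooled SD within groups of CTNNB1 was 0.027 on the log2 scale, and 0.266% of the 4882 genes averaging at least 1000 normalized counts had a smaller one. For CTNND1 and CTNNA1 these shares were 14.7% and 15.5%, whereas for CDH13, CDH2, CDH11 and CDH6 they were 65.9%, 88.3%, 95.7% and 98.2%.

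Plakoglobin (JUP, chromosome 17 from 41754604 to 41786931, minus strand), the catenin shared by adherens junctions and desmosomes, was low. Its normalized counts were 178, 119 and 74.8 in UE7T-9 Cont, against 151, 117 and 126 in UE7T-9 SHC4, so all values of UE7T-9 SHC4 lay within the range of the controls. The log2 fold change was 0.16 (standard error 0.30, limma adjusted p = 0.847).

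Promoter windows, from 250 bases before a start to 50 after it, were in the RefSeq table (GRCh38.p14) for 5 members: CDH2, CDH4, CTNNA1, CTNNB1 and JUP. CDH1, CDH6, CDH11, CDH13 and CTNND1 had no entry. The E-box CACCTG, read on the other strand as CAGGTG, is the letter sequence recognized by the SNAI and ZEB repressors of CDH1. These repressors were expressed in the line at unlike levels. ZEB2 averaged 3808 ± 127 normalized counts in UE7T-9 Cont, against 3864 ± 449 in UE7T-9 SHC4, and SNAI2 2148 ± 586 and 2516 ± 373 (SD, n = 3 each). ZEB1 and SNAI1 were lower, averaging 898 and 62.6 over all libraries. These 3 windows are shown because they belong to the abundant N-cadherin and to β-catenin and plakoglobin, related catenins of unlike level. For JUP, the window shown is the one that held E-box matches, and the first JUP window held none. Each is written 5′ to 3′ on the strand of its gene, and capitals mark the E-box letters.
CDH2, chr18:28177081-28177380, minus strand: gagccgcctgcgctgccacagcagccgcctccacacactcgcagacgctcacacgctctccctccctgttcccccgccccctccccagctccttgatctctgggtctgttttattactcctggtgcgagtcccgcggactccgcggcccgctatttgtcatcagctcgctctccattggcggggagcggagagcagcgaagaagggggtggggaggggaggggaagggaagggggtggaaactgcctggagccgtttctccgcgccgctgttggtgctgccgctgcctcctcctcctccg
CTNNB1, chr3:41199255-41199554, plus strand: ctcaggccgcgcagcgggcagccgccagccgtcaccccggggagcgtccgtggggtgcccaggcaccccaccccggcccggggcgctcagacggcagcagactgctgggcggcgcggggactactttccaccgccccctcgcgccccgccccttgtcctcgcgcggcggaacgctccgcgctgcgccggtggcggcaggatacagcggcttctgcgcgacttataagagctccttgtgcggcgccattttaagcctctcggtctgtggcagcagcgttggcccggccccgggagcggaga
JUP, second window, chr17:41785927-41786226, minus strand: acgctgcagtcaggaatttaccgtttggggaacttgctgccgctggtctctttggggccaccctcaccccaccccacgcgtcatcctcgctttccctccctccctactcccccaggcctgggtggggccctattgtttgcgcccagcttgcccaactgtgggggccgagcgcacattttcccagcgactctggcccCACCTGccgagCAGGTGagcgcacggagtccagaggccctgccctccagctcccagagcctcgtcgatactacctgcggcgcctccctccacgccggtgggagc

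The second JUP window held CACCTG starting 54 bases before the start and CAGGTG starting 43 bases before it, and the 2 matches did not overlap. The first JUP window, the CTNNB1 window, both CDH2 windows and all 4 of CTNNA1 held none, and 1 of the 2 CDH4 windows held CAGGTG. In all, 2 of the 11 member windows had a match, where 20.6% of the 35116 windows in the table had at least 1 and 3.49% had at least 2. A match is a run of letters and does not show binding.

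The catenins were also compared within each library, where scaling plays no part. The level per kilobase of CTNNB1 relative to CTNNA1 was 0.501, 0.429 and 0.418 in UE7T-9 Cont, against 0.445, 0.435 and 0.430 in UE7T-9 SHC4. That of CTNND1 relative to CTNNA1 was 0.531, 0.423 and 0.463 in UE7T-9 Cont, against 0.438, 0.481 and 0.451 in UE7T-9 SHC4. JUP was at 0.0332, 0.0195 and 0.0119 of CTNNA1 in UE7T-9 Cont and at 0.0245, 0.0188 and 0.0191 in UE7T-9 SHC4. Each ratio overlapped between the groups (exact two-sided permutation tests on log2 ratios, p = 1.0, 0.8 and 1.0, adjusted p = 1 for all 3 ratios). UE7T-9 Cont replicate 1 had the highest value of all libraries for each of the 3 ratios, and it also had the lowest CTNNA1. The ratios depended on the length used. With the longest transcript, the mean log2 ratio of CTNND1 to CTNNA1 in UE7T-9 Cont was -1.87, in place of -1.09. The differences between the groups cannot change with the length, because it cancels in a difference of log2 ratios.

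The make-up of the 6 cadherin mRNAs was computed as each one's share of their summed level per kilobase. CDH13 took 52.0% ± 7.18 in UE7T-9 Cont, against 51.2% ± 6.04 in UE7T-9 SHC4, and CDH2 took 20.8% ± 1.60 and 16.6% ± 5.34 (SD, n = 3 each). CDH11 took 24.5%, 17.3% and 14.8% in the controls, against 24.1%, 29.3% and 24.5% in UE7T-9 SHC4. CDH6 took 8.12% ± 2.70 and 6.12% ± 2.19, while CDH1 and CDH4 each stayed at or below 0.131% in every library. The largest difference between group means was that of CDH11 (7.12 percentage points, exact two-sided permutation p = 0.3, adjusted p = 0.72 over the 6 cadherins). The share of CDH2 was 14.4% and 12.7% in UE7T-9 SHC4 replicates 3 and 2 and 19.3% to 22.7% in the other 4 libraries. The shares depended on the length used. In UE7T-9 Cont the mean share of CDH11 was 18.8%, below that of CDH2. With the longest transcript as the length, CDH11 took 25.2% and CDH2 16.4% in UE7T-9 Cont, against 33.7% and 12.7% in UE7T-9 SHC4.

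**Figure D3:**
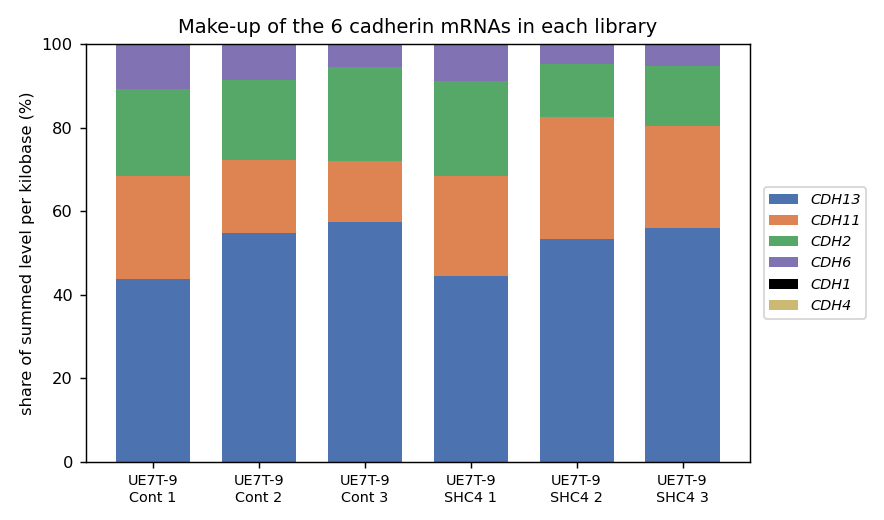
Stacked bars of the share (%) of each cadherin in the summed normalized count per kilobase of the 6 cadherins, 1 bar per library. CDH13 takes 43.8% to 57.3%, CDH11 14.8% to 29.3% and CDH2 12.7% to 22.7%, while CDH1 and CDH4 are too small to see.

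The cadherins shared a placing of the control libraries. UE7T-9 Cont replicate 3 had the lowest control value for all 6 cadherins, as it did for 31.5% of all tested genes, and UE7T-9 Cont replicate 1 had the highest for 5 of 6, as it did for 36.1% of all genes. JUP followed the same placing, and CTNNA1 and CTNND1 had their highest control value in UE7T-9 Cont replicate 3. Within UE7T-9 SHC4, replicate 1 was highest for CDH1, CDH2, CDH6 and JUP and lowest for CDH4, CDH11 and CDH13.

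**Figure D4:**
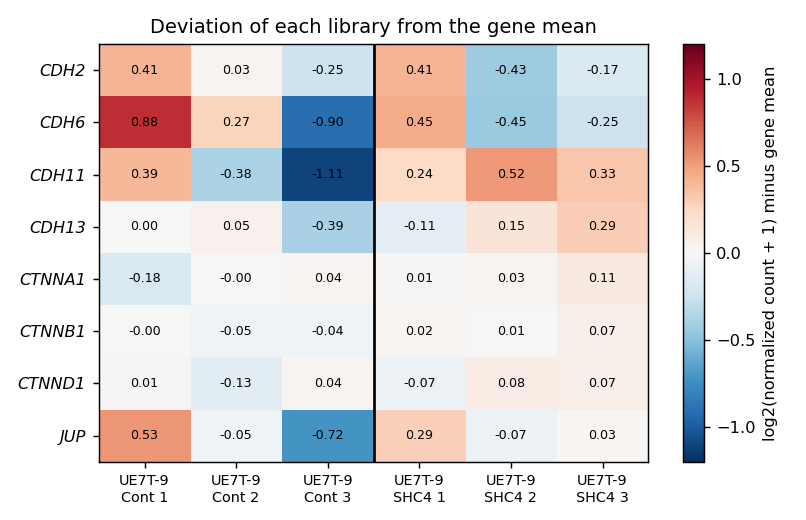
Heat map of log2(normalized count + 1) minus the gene's mean over the 6 libraries, for the 8 members averaging at least 100, with UE7T-9 Cont left of the black line and UE7T-9 SHC4 right of it. Values run from -1.11 (CDH11 in UE7T-9 Cont replicate 3) to 0.88 (CDH6 in UE7T-9 Cont replicate 1), and those of CTNNB1 stay between -0.05 and 0.07.

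Beyond the members, 7 lists of 79 junction and β-catenin genes were followed, of which 69 were tested. Limma called 0 of these 69 (18 at an unadjusted p below 0.05), edgeR called 0 of 62 and DESeq2 called 5 of 62. Over all genes, 14.4% had an unadjusted p below 0.05 in limma and DESeq2 called 4.14%. In 18 of the 69 the groups did not overlap, where 19.3% of all tested genes had no overlap. The 5 genes called by DESeq2 were DSC2, DSC3 and PTPRB, with higher values in UE7T-9 SHC4, and CDH10 and NECTIN4, with lower values. In limma, all 5 passed without UE7T-9 Cont replicate 1, where 9 list genes and 5.68% of all genes did, and none of the 5 passed in the other 5 fits that left out a library (adjusted p from 0.0589 to 0.588). UE7T-9 Cont replicate 1 was singled out for its likeness to the UE7T-9 SHC4 libraries, so the calls without it are no independent support.

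Desmosomes join cells through desmogleins and desmocollins, which are themselves of the cadherin superfamily, and JUP links them with plakophilins to desmoplakin. Of 11 desmosome genes, 8 were tested, limma called 0 (5 at an unadjusted p below 0.05, where 14.4% of all genes were), and DESeq2 called 2 of 7, both with higher values, where 2.06% of all genes were called higher. The log2 fold change was above 0 for 5 and below 0 for 3, with a median of 0.48. Of the 5 with an unadjusted p below 0.05, DSC2, DSC3, DSG2 and DSP had values above 0 and PKP1 a value below 0. DSC2 (desmocollin 2) had normalized values of 36.1, 29.4 and 30.5 in UE7T-9 Cont, against 63.3, 85.7 and 80.3 in UE7T-9 SHC4. The groups were apart, with a DESeq2 log2 fold change of 1.25 ± 0.33 SE (adjusted p = 0.00915, against 0.138 in limma). DSC3 (desmocollin 3) had 1372, 1281 and 476 in UE7T-9 Cont, against 1628, 2459.7 and 2659 in UE7T-9 SHC4, with a DESeq2 log2 fold change of 1.11 ± 0.36 SE (adjusted p = 0.0461, against 0.206 in limma).

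DSG2 (desmoglein 2), the most abundant gene of the list by normalized count, had 7136, 6548 and 6459 in UE7T-9 Cont. It had 7055, 13728 and 13279 in UE7T-9 SHC4, so replicates 2 and 3 lay above the other 4 libraries and replicate 1 lay among the controls (DESeq2 adjusted p = 0.0563, limma adjusted p = 0.256). Without UE7T-9 SHC4 replicate 1, DSG2 passed in limma (adjusted p = 0.0463), the 1 list gene that did in that fit. DSP, the plakin of the desmosome, overlapped between the groups, with means of 2782 ± 444 and 3745 ± 459 (SD, n = 3 each, limma adjusted p = 0.264), as did PKP4. The 3 genes below 0 were the tested plakophilins, of which PKP1 and PKP3 are named after their values were seen. PKP1 had 11.7, 5.89 and 7.87 in UE7T-9 Cont, against 2.64, 1.66 and 3.49 in UE7T-9 SHC4, which rests on 2 to 3 reads per UE7T-9 SHC4 library, and PKP3 and PKP4 had log2 fold changes of -0.53 and -0.22 (limma adjusted p of 0.500 and 0.559). These genes stood beside a JUP level that overlapped between the groups.

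**Figure D5:**
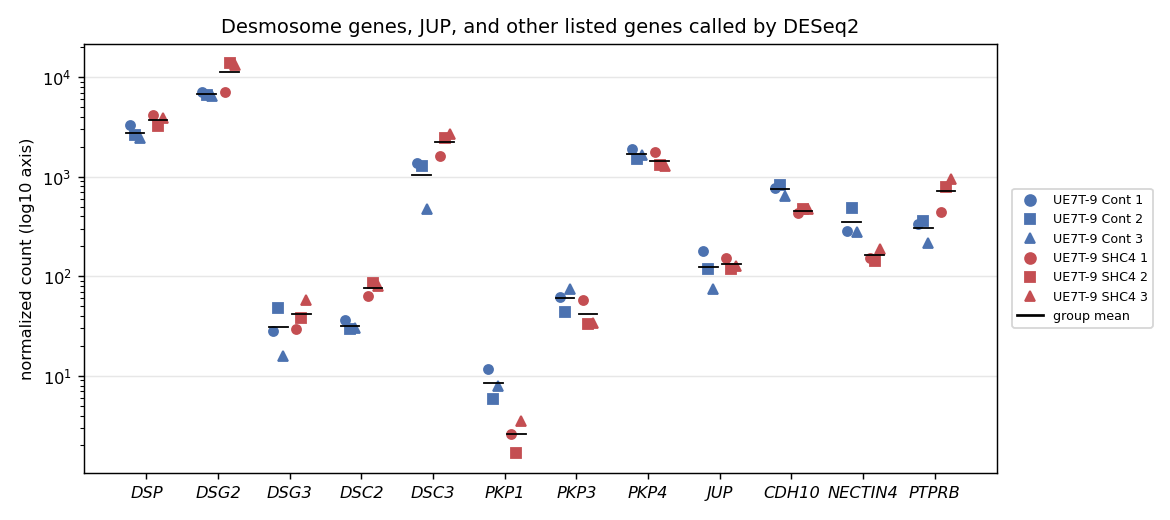
Normalized count (log10 axis) of the 8 tested desmosome genes, JUP, and the 3 other list genes called by DESeq2 (CDH10, NECTIN4 and PTPRB) in each library, with UE7T-9 Cont in blue, UE7T-9 SHC4 in red and a black line at the group mean. The groups are apart for DSC2, DSC3, PKP1, CDH10, NECTIN4 and PTPRB and overlap for JUP.

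Of 14 other classical cadherins, 9 were tested and limma called 0 (2 at an unadjusted p below 0.05, where 14.4% of all genes were). DESeq2 called 1 of 5, with lower values, where 2.08% of all genes were called lower. The 4 most abundant were CDH8, CDH24, CDH10 and CDH18, all type II cadherins, with mean normalized counts from 467 to 872. CDH10, a type II cadherin known from brain, had 774, 829 and 639 in UE7T-9 Cont, against 431, 471 and 470.5 in UE7T-9 SHC4. The groups were apart, with a DESeq2 log2 fold change of -0.71 ± 0.17 SE (adjusted p = 0.00362, against 0.115 in limma). CDH8, CDH24 and CDH18 overlapped between the groups, with means of 1083 ± 489 and 662 ± 162, of 751 ± 209 and 738 ± 118, and of 419 ± 185 and 515 ± 31.3 (SD, n = 3 each).

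Among 13 tested junction adaptors and nectins, limma called 0 (3 at an unadjusted p below 0.05) and DESeq2 called 1 of 12, where these shares of all genes were 14.4% and 4.14%. The gene called was NECTIN4, an adhesion molecule of the immunoglobulin type. NECTIN4 had 284, 483 and 277 in UE7T-9 Cont, against 154, 143 and 190 in UE7T-9 SHC4, a DESeq2 log2 fold change of -1.10 ± 0.28 SE (adjusted p = 0.00530, against 0.146 in limma). The actin linkers ACTN4, ACTN1 and VCL had log2 fold changes of 0.14, -0.10 and -0.08, and their groups overlapped. Of 12 genes for cadherin processing and turnover, limma called 0 (3 unadjusted) and DESeq2 called 1 of 11, against the same shares of all genes. The gene called was PTPRB, a receptor phosphatase known to act on VE-cadherin. VE-cadherin (CDH5) itself had at most 1 read per library (mean normalized count 0.39) and was not tested. PTPRB had 335, 361 and 216 in UE7T-9 Cont, against 440.3, 784 and 940 in UE7T-9 SHC4, a DESeq2 log2 fold change of 1.24 ± 0.31 SE (adjusted p = 0.00433, against 0.162 in limma). ADAM10, the protease that sheds N-cadherin, had means of 5880.4 ± 1323 and 6278 ± 1080 (SD, n = 3 each) and overlapped between the groups, as did PTPN14 and PTPRK.

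Of 9 genes of the β-catenin destruction complex, 10 genes of nuclear β-catenin signalling and 8 repressors of cadherins, limma called 0 in each list. In the same order, 1, 2 and 2 had an unadjusted p below 0.05 in limma, where 14.4% of all genes did. DESeq2 and edgeR called 0, where they called 4.14% and 0.0694% of all genes. The median log2 fold changes of these lists were -0.06, 0.12 and 0.22. The groups overlapped for CSNK1A1, GSK3B and FBXW11, for BCL9L, PYGO2 and TCF7, and for ZEB2, SNAI2 and TCF4, the most abundant genes of these lists.

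The reads of some members cannot be fully told from those of overlapping genes. For genes on the opposite strand, the kit did not mark the strand, and the setting used in counting is not given in the sources used here. For genes on the same strand, the strand could not tell the reads apart in any case. LRRTM2, on the strand opposite to CTNNA1, shares 445 exon bases with it and had a mean normalized count of 43.2, against 10944 for CTNNA1. AC009119.1, antisense to CDH13, shares 141 exon bases with it and had a mean of 13.7. The transcript gene AC010533.1, on the same strand as CDH11, shares 254 exon bases with it (mean 3.07). AP001931.1, on the same strand as CTNND1, shares 289 with it (mean 2.85).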

How the data were processed

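RNA-seq of UE7T-9 cells was analysed from 6 deposited files, 1 per library, each holding a signal value per gene: the count of reads divided by 1 size factor of the library (normalized count). Per the labels, the authors' processing notes name HISAT2 2.0.5, featureCounts 1.5.0-p3 and DESeq2. The genome build is not given in the sources used here. Whole reads were recovered for 100% of values (tolerance 0.01 reads), and a floor of 3 reads equals a normalized count of 2.50 to 3.53. It covers counting error only. Symbols and positions came from GENCODE 29 (GRCh38), which held all 28181 identifiers.

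Limma 3.58.1 in R 4.3.3 was run on log2(value + 1) over genes averaging 1 or more, adjusted by Benjamini-Hochberg, with a threshold of 0.05. The added 1 draws fold changes of low genes toward 0, yet they can still exceed those of DESeq2. For CDH1, limma gave a log2 fold change of -0.56 and DESeq2 -0.30. DESeq2 1.42.0 and edgeR 4.0.16 were run on the recovered reads, and other scalings, filters, a pseudocount of 0.1, a replicate block and leaving out each library were tried. The scripts were tested on simulated data. Exact permutation tests were two-sided. Levels per kilobase used merged exons.

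The members and lists were chosen with earlier results of these data known. Genes named were all members, SHC4, list genes passing in limma or DESeq2, up to 3 more of the most abundant per list, the 3 genes most like CDH13, and genes overlapping a member. Others were named after their values were seen.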

Additional observations from a re-analysis of the deposited data

How the results depend on the processing

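Of all tested genes, 15 passed in limma, 669 in DESeq2, 25 with TMM scaling, 24 with library size scaling and 43 without a filter. Leaving out 1 library gave 2 to 1311 genes, 0 to 1 member (CDH11 without UE7T-9 Cont replicate 1) and 0 to 9 list genes, against 5 list genes in DESeq2. In the fit with a replicate block, 47 genes and 0 members passed, and the standard error of every member was smaller (for CDH2, 0.13 in place of 0.23). Deviations of same-numbered libraries correlated at 0.148, 0.013 and -0.0070. The value for replicate 1 of both groups was the highest of all pairs, but UE7T-9 Cont replicate 2 correlated best with UE7T-9 SHC4 replicate 3 (0.099). The numbers were therefore not taken to pair the samples, and a shared effect of replicate 1 was not tested. Under library size scaling, where the median log2 fold change of all genes was -0.10, the sign turned for CDH4 (-0.025), CTNNA1 (-0.0031), CTNNB1 (-0.040) and CTNND1 (-0.048). Leaving out 1 library turned the sign of CDH1 (-1.01 to 0.19), CDH2 (-0.37 to 0.052), CDH4 (-0.69 to 0.50), CDH6 (-0.66 to 0.23) and JUP (-0.16 to 0.47). It also turned the difference in the CDH13 share (-4.90 to 2.59 percentage points) and the log2 ratio to CTNNA1 of CTNNB1 (-0.087 to 0.044), CTNND1 (-0.12 to 0.043) and JUP (-0.30 to 0.44). The cause of these changes was not tested. CDH11, CDH13, CTNNA1, CTNNB1 and CTNND1 kept a log2 fold change above 0 in every fit that left out a library. Depth limits CDH1 and CDH4, which rest on 2 to 20 reads per library.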
